A study of Mus musculus with 14 samples.

Results

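The clustered protocadherins are cadherin-family adhesion proteins of neurons, encoded side by side in the alpha, beta and gamma clusters of mouse chromosome 18. Each neuron expresses its own small combination of isoforms, chosen by which promoters are active, and matching isoforms on touching membranes bind each other. This homophilic recognition is known for its part in dendrite self-avoidance, axon tiling and neuronal survival. In the alpha and gamma clusters each gene contributes 1 large variable exon that is spliced to constant exons common to the whole cluster, whereas most beta genes are a single exon and share none.

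Members were the genes of the count table named Pcdha, Pcdhb, Pcdhga, Pcdhgb, Pcdhgc or Pcdhac followed by a number, which gave 45 of 43346 genes: 8 alpha, 22 beta and 15 gamma genes. A further 13 genes of the same clusters stood under human-style names and were identified by Ensembl gene ID, which brought the clusters to 58 genes: Pcdha1, Pcdha2, Pcdha11, Pcdha12, Pcdhac1, Pcdhac2, Pcdhga3, Pcdhga8, Pcdhga9, Pcdhga11, Pcdhga12, Pcdhgc3 and Pcdhgc5. They are described here where the cluster needs them, and no count of members includes them. The gene called Pcdha10 in the table has the ID that the GENCODE annotation used here calls Pcdha11, and the name in the table was kept.

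Brain tissue came from 14 female mice aged 23 months, all of the mixed C57BL/6;SJL background and each sequenced as 1 library. The 4 NTG (non-transgenic) mice, numbered 7 to 10, and the 5 APP/PS1 mice, numbered 16 to 20, drank water with 0.1% PEG as vehicle. APP/PS1 mice carry transgenes of mutant human APP and PS1 and deposit amyloid. The 5 APP/PS1+CP2 mice, numbered 21 to 25, are APP/PS1 mice that received CP2, a tricyclic pyrone that inhibits mitochondrial complex I, at 25 mg/kg/day in drinking water with 0.1% PEG from 9 months of age, that is for 14 months. The tissue was a cross-section holding hippocampus and cortex, so fewer cells of a type and less RNA per cell cannot be told apart.

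Total counts ranged from 70548781 to 106235625 per library. No 2 libraries of a group agreed within sampling noise (26 pairs, lowest chi-square per degree of freedom 10.5). Neuronal markers were present in every library: the 14 listed neuron genes summed to 8465 to 10425 CPM (counts scaled to a common library size). Summed microglia markers (12 genes) were 441 to 468 CPM in NTG, 911 to 1368 in APP/PS1 and 784 to 1160 in CP2-treated mice. Mouse 16 stood apart, with 2896 CPM over 11 striatum markers against 253 to 470 CPM in the other mice. Their part in the results below was not tested. Beta gene counts for APP/PS1 against NTG, and log2 fold changes of Pcdhgb6 and Pcdhgb5, are also given without mouse 16. Marker results, group means of the C-type genes and results for the other gene lists include it.

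The 22 beta genes lie on mm10 at chr18:37264938-37524479, and 18 of them have a single exon. Their exons add up to between 2588 and 8695 bases per gene. Reads were counted on every gene they overlapped, and the kit does not mark strand, so 3 beta genes are uncertain: 63.5% of the bases of Pcdhb12 lie under the antisense gene Gm37446, and Pcdhb21 and Pcdhb22 overlap by 455 bases. The other 19 beta genes overlap no annotated exon of another gene.

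Beta genes were expressed at low to moderate levels. Summed over the cluster, NTG mice had 216 ± 7.21 CPM (SD, n = 4), vehicle-treated APP/PS1 mice 201 ± 11.2 CPM (SD, n = 5) and those given CP2 209 ± 3.76 CPM (SD, n = 5). The single mice overlapped between the groups: NTG ran from 209 to 224 CPM, APP/PS1 from 183 to 212 CPM and CP2-treated mice from 203 to 212 CPM. Per kilobase of exon, Pcdhb9 had the highest level of the cluster, at 7.36 ± 2.01 CPM per kb (SD over 14 mice). Pcdhb20 followed at 3.51 ± 0.233 CPM per kb. From there the levels fell gradually to Pcdhb21, at 1.19 ± 0.131 CPM per kb. Pcdhb1 was lowest, at 0.276 ± 0.119 CPM per kb, with 36 to 114 reads per library. It did not pass the filter of CPM over 1 in every mouse of a group, so 21 of the 22 beta genes were tested.

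The first comparison asked how the APP/PS1 genotype at this age affected these genes. No beta gene differed between APP/PS1 and NTG mice at an adjusted p under 0.05 (edgeR quasi-likelihood test with Benjamini-Hochberg adjustment over 16417 genes, of which 5.68% passed). The smallest adjusted p of a beta gene was 0.0964. At an unadjusted p under 0.05, the threshold the study used, 4 of 21 beta genes were lower in APP/PS1 mice, or 19.05%, against 8.05% of all genes tested that were lower. No beta gene was higher at that threshold, which 18.7% of all genes tested passed in either direction. These 4 genes were Pcdhb14, Pcdhb16, Pcdhb17 and Pcdhb21, all in the downstream part of the cluster. The log2 fold change was below 0 for 19 of 21 beta genes, compared with 51.2% of all genes tested, and its median was -0.12 over the beta genes and -0.00 over all genes. Neighbouring genes of 1 locus measured in the same libraries are not independent of each other.

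Pcdhb14, at chr18:37447656-37456350 and the longest beta gene, read 18.7, 16.6, 18.1 and 17.3 CPM in NTG mice 7 to 10. In APP/PS1 mice 16 to 20 it read 15.5, 15.4, 13.9, 15.6 and 16.2 CPM. Every APP/PS1 mouse lay below every NTG mouse, with a log2 fold change of -0.20 ± 0.064 (SE, edgeR unadjusted p = 0.0111, adjusted p = 0.117). In CP2-treated mice 21 to 25 the level was 15.2, 17.4, 15.0, 16.5 and 14.2 CPM, which overlapped both other groups.

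Pcdhb17, at chr18:37484795-37489454, read 14.9, 18.1, 17.3 and 15.8 CPM in NTG mice. The APP/PS1 mice read 13.7, 13.6, 13.6, 14.4 and 14.8 CPM, all below the NTG mice, with mouse 20 at 14.84 CPM and mouse 7 at 14.88 CPM closest to each other. The log2 fold change was -0.23 ± 0.072 (SE, edgeR unadjusted p = 0.00925, adjusted p = 0.104). CP2-treated mice, at 17.2, 15.3, 15.4, 14.2 and 14.01 CPM, spanned the gap between the groups.

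Pcdhb21, at chr18:37513621-37518325, had the largest fall of the 4. It read 7.04, 5.89, 6.58 and 5.54 CPM in NTG mice and 5.24, 5.13, 5.17, 5.10 and 4.98 CPM in APP/PS1 mice. The APP/PS1 mice were close together and below all NTG mice, with a log2 fold change of -0.28 ± 0.086 (SE, edgeR unadjusted p = 0.00822, adjusted p = 0.0964). In CP2-treated mice it read 5.57, 5.34, 5.19, 6.20 and 5.73 CPM.

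Pcdhb15 and Pcdhb16 are adjacent, at chr18:37473540-37476340 and chr18:37477814-37483038. Pcdhb16 read 12.4, 15.6, 12.4 and 12.3 CPM in NTG mice, with mouse 8 far above the rest. APP/PS1 mice read 11.5, 11.2, 10.4, 12.7 and 10.6 CPM, so that mouse 19 overlapped the NTG group. The log2 fold change was -0.22 ± 0.097 (SE, edgeR unadjusted p = 0.04999, adjusted p = 0.267), and without mouse 8 it was -0.12. Pcdhb15 read 4.55, 4.69, 4.97 and 4.68 CPM in NTG mice and 3.95, 3.85, 3.67, 4.50 and 4.43 CPM in APP/PS1 mice. These ranges did not overlap, yet the unadjusted p was 0.0551 in edgeR (log2 fold change -0.20 ± 0.093, SE). In all, 4 of 21 beta genes (Pcdhb14, Pcdhb15, Pcdhb17 and Pcdhb21) had groups that did not overlap, each lower in APP/PS1 mice. Of all genes tested, 4.11% had groups that did not overlap and were lower in APP/PS1 mice.

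**Figure D1:**
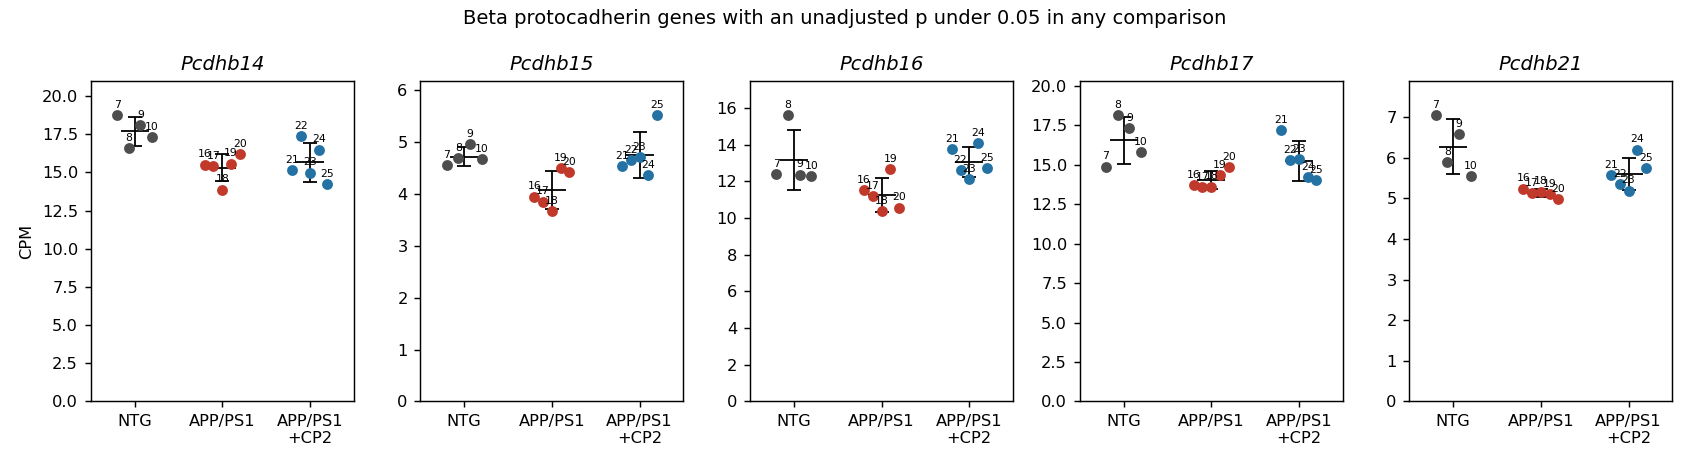
CPM (y axis, from 0) of the 5 beta genes with an unadjusted p under 0.05 in any comparison, by group, with 1 point per mouse labelled by its number and bars for the mean ± SD. For Pcdhb14, Pcdhb15, Pcdhb17 and Pcdhb21 every APP/PS1 mouse lies below every NTG mouse, while the CP2-treated mice overlap the APP/PS1 mice for all 5 genes.

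Calls depended on the test. DESeq2 put 3 of 21 beta genes under an adjusted p of 0.05 (Pcdhb14 at 0.0436, Pcdhb17 at 0.0314 and Pcdhb21 at 0.0302), in a fit where 10.2% of all genes were under it. The edgeR fit over all 3 groups called 1 (Pcdhb21, adjusted p = 0.0467) against 7.90% of all genes, and limma-voom 1 (Pcdhb17, adjusted p = 0.0488) against 9.52%. Without mouse 16 there were 4 beta genes under an unadjusted p of 0.05 and 0 under an adjusted p of 0.05 in edgeR.

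Region and cell type markers were also set against each other in APP/PS1 and NTG mice. The 7 dentate gyrus markers summed to 228 to 309 CPM in NTG and 213 to 249 CPM in APP/PS1 mice, with 4 of 7 lower at an unadjusted p under 0.05 in edgeR and a median log2 fold change of -0.56. The 9 thalamus markers summed to 481 to 743 CPM in NTG and 246 to 563 CPM in APP/PS1 mice, ranges that overlapped. Of these 9, 1 was lower at that threshold, with a median of -0.48 that includes mouse 16. Of all genes tested, 8.05% were lower at that threshold. Mouse 16 held the lowest thalamus sum, and the remaining APP/PS1 mice had 395 to 563 CPM. All 12 microglia markers were higher at an adjusted p under 0.05, with a median of 1.41, where 5.68% of all genes passed in either direction. Of the 14 neuron markers 1 was lower and 0 higher at an unadjusted p under 0.05 in edgeR, with a median of -0.07. None of these markers was at 0 in every mouse. Their part in the beta gene values was not tested.

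The second comparison asked what CP2 did in APP/PS1 mice. No beta gene passed an adjusted p of 0.05 in edgeR (smallest 0.744), where 0.00609% of 16407 genes did, and DESeq2 and limma-voom also called 0. At an unadjusted p under 0.05, 2 of 21 beta genes were higher with CP2 and 0 lower, or 9.52%, against 2.88% of all genes that were higher. In either direction 6.55% of all genes passed that threshold. Pcdhb16 read 13.8, 12.6, 12.1, 14.1 and 12.7 CPM in CP2-treated mice, with a log2 fold change of 0.21 ± 0.074 over the vehicle-treated APP/PS1 mice (SE, edgeR unadjusted p = 0.0146, adjusted p = 0.744). Only mouse 19 of the vehicle-treated mice reached the CP2-treated range. Pcdhb15 read 4.53, 4.65, 4.71, 4.36 and 5.51 CPM, with mouse 25 the highest of all 14 mice. Its log2 fold change was 0.22 ± 0.096 (SE, edgeR unadjusted p = 0.0416, adjusted p = 0.744), and its unadjusted p reached 0.117 when a mouse was left out. Over the 21 genes the log2 fold change was above 0 for 16, compared with 47.5% of all genes, and its median was 0.05. No beta gene had groups that did not overlap, where 1.14% of all genes tested did. Thalamus markers moved beside these values, at 479 to 741 CPM in CP2-treated mice, with 4 of 9 higher than under vehicle at an unadjusted p under 0.05 in edgeR and a median log2 fold change of 0.57. Dentate gyrus markers summed to 242 to 265 CPM, with 1 of 7 higher and a median of 0.25. Of the 14 neuron markers 0 were higher and 0 lower at that threshold, with a median of 0.02. Their part was not tested.

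Pcdhb14, Pcdhb17 and Pcdhb21 differed by 0.03 ± 0.068, 0.12 ± 0.065 and 0.13 ± 0.070 (log2 fold change ± SE) under CP2 against vehicle, with unadjusted p of 0.65, 0.0973 and 0.0892 in edgeR. These 2 comparisons share the 5 vehicle-treated APP/PS1 mice, so that a low value in those mice enters both with opposite sign.

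The third comparison set CP2-treated APP/PS1 mice against NTG mice. Here 0 of 21 beta genes passed an adjusted p of 0.05 (edgeR, against 6.02% of 16416 genes). At an unadjusted p under 0.05, 1 of 21 was lower (4.76%, against 8.59% of all genes that were lower and 20.2% in either direction). That gene was Pcdhb14, at a log2 fold change of -0.16 ± 0.068 (SE, edgeR unadjusted p = 0.0354, adjusted p = 0.205). DESeq2 and limma-voom also called 0 at an adjusted p. Pcdhb15 and Pcdhb16 stood at 0.02 ± 0.090 and 0.00 ± 0.087 on the log2 scale. The median over beta genes was -0.04. Of the dentate gyrus markers 4 of 7 were lower at an unadjusted p under 0.05 in edgeR, with a median of -0.29. Of the 14 neuron markers 3 were lower and 0 higher at that threshold, with a median of -0.04. At an adjusted p under 0.05, 10 of 12 microglia and 3 of 6 endothelium markers were higher and 0 of either list lower. The part of these markers was not tested.

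**Figure D2:**
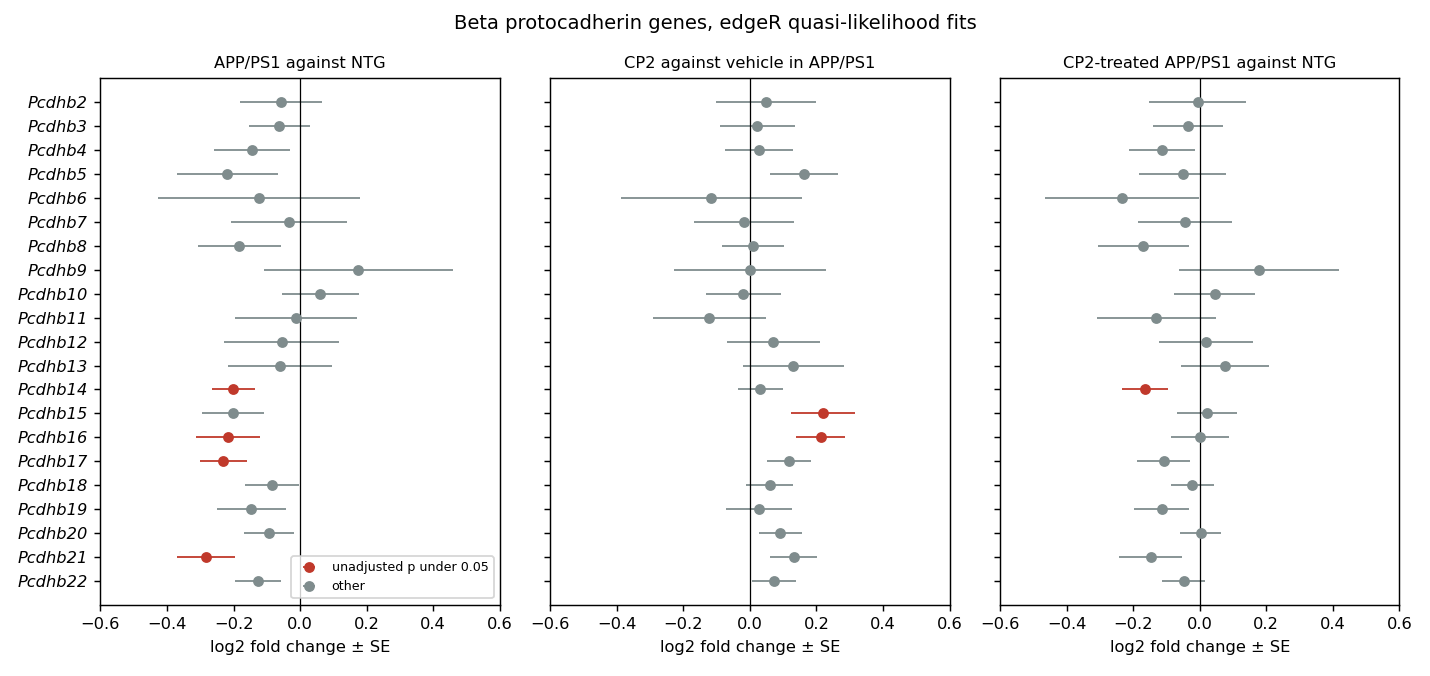
Log2 fold change ± SE (x axis) of the 21 beta genes tested (y axis, cluster order) in the 3 comparisons, from edgeR. Red points have an unadjusted p under 0.05: 4 genes, all below 0, in APP/PS1 against NTG mice, 2 above 0 for CP2 against vehicle, and 1 below 0 for CP2-treated against NTG mice.

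Beta genes also varied between mice within each group. Pcdhb18 was the steadiest of the 22, at 7.74 to 9.43 CPM over the 14 mice, a ratio of 1.22 between highest and lowest. Pcdhb1, with few reads, had a ratio of 3.84, and Pcdhb6 and Pcdhb9 had ratios of 2.88 and 2.44 with many more reads. The genes in this paragraph and the next, other than Pcdhb1 and Pcdhb9, were chosen here after their values were seen, and the patterns described were not tested.

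Pcdhb9, at chr18:37400855-37403909, read 17.3, 26.6, 12.2 and 26.6 CPM in NTG mice. It read 14.6, 28.5, 16.6, 29.7 and 26.7 CPM in APP/PS1 mice and 24.7, 26.8, 28.0, 22.2 and 14.4 CPM in CP2-treated mice. Its 5 lowest values were therefore in mice 7, 9, 16, 18 and 25, at 12.2 to 17.3 CPM, and no mouse lay between 17.3 and 22.2 CPM. Each group held at least 1 of these mice. Pcdhb6 read 10.4 and 9.47 CPM in NTG mice 7 and 9, 12.8 and 6.87 CPM in APP/PS1 mice 16 and 18, and 9.40 CPM in CP2-treated mouse 25. Those were the 5 highest values of Pcdhb6, the remaining mice reading 4.46 to 6.52 CPM. Pcdhb7 had its 5 highest values in the same mice, at 12.3 to 13.9 CPM against 8.25 to 10.6 CPM in the remaining mice. Pcdhb12 had its 5 lowest values there, at 7.10 to 8.69 CPM against 9.32 to 11.97 CPM. Pcdhb5 and Pcdhb11 overlapped between these mice and the others.

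These 5 mice were chosen by their Pcdhb9 values. Of the other 15737 genes with CPM over 1 in every mouse, 10 had these mice at one end. They were Pcdhb6, Pcdhb7, Pcdhb12 and Gnpda1, an enzyme of glucosamine metabolism, on chromosome 18, and 6 genes on other chromosomes.

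**Figure D3:**
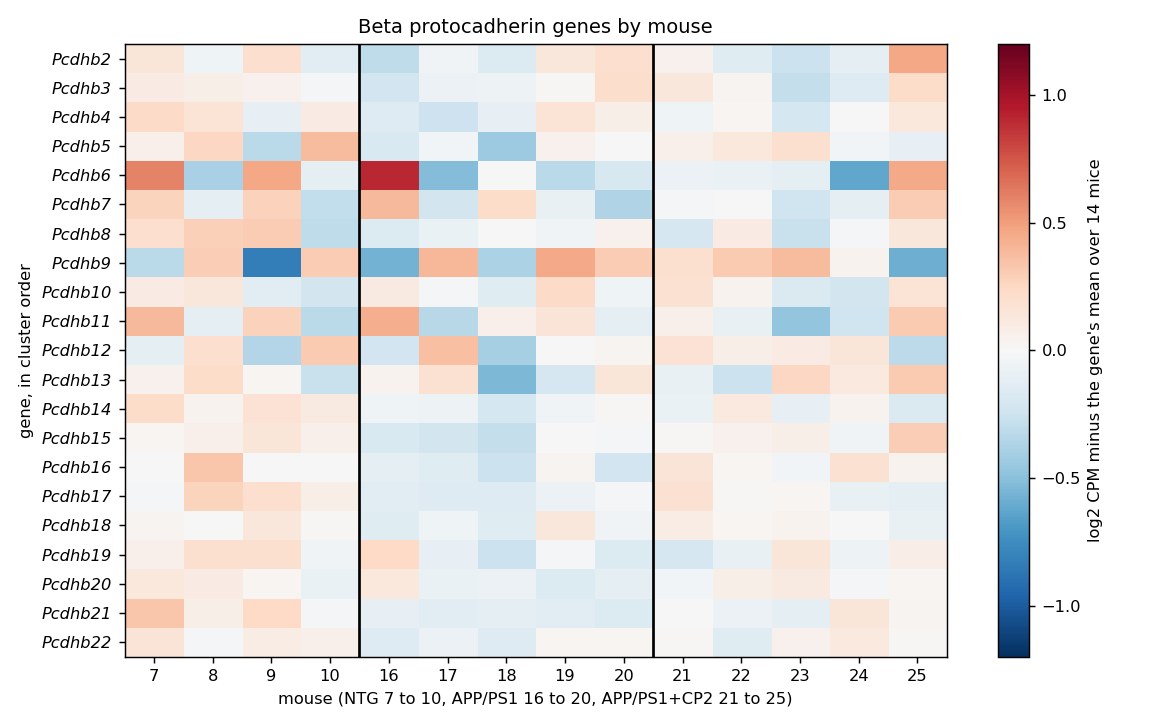
Log2 CPM of 21 beta genes (rows, cluster order) in each of 14 mice (columns, by group), relative to the mean of that gene over all mice. Pcdhb9 and Pcdhb12 are blue and Pcdhb6 and Pcdhb7 white to red in mice 7, 9, 16, 18 and 25, which are spread over the 3 groups.

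The alpha and gamma genes were measured mainly through their constant exons. The alpha cluster lies at chr18:36930184-37187661 and its genes share 3 exons of 2860 bases in all. The gamma cluster lies at chr18:37661793-37841873 and its genes share 3 exons of 2119 bases. Since reads were counted on every gene they overlapped, a read on a shared exon was counted once for each gene of the cluster. The lowest gene of a cluster in a library therefore sets an upper limit on the reads from the shared exons, and the difference between a gene and that lowest gene no longer holds them. Which gene was lowest changed between libraries: Pcdha1 or Pcdha8 in the alpha cluster, and Pcdhga1, Pcdhgb4 or Pcdhgb8 in the gamma cluster. The excess of a gene therefore also varies with the gene that is subtracted. Over all 14 mice the lowest gene accounted for a median of 96.6% of the count of an alpha gene and 97.7% of that of a gamma gene. It was over 90% for 13 of 14 alpha and 20 of 22 gamma genes.

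No alpha gene as counted passed a test between groups. Pcdha5, the highest named alpha gene per kilobase, was at 18.1 ± 0.853 CPM per kb and Pcdha4, the lowest, at 16.7 ± 0.786 CPM per kb (SD, 14 mice). Pcdha5 is the shortest of these genes, at 5206 bases, and Pcdha4 the longest, at 5768 bases. Since most of each count is shared reads, this order does not rank their expression. The mean excess over the lowest alpha gene was 288 reads for Pcdha5 and 467.5 for Pcdha4, where 86.1% of the own bases of Pcdha4 overlap other genes. The lowest alpha gene of a library read 81.6, 93.0, 89.2 and 91.1 CPM in NTG mice. It read 90.1, 93.9, 92.6, 85.4 and 94.2 CPM in APP/PS1 mice and 94.6, 87.0, 91.9, 96.1 and 94.9 CPM in CP2-treated mice. Of the 8 alpha members 0 passed an unadjusted p of 0.05 in any comparison, against 18.7%, 6.55% and 20.2% of all genes. Their median log2 fold changes were 0.04 for APP/PS1 against NTG, 0.03 for CP2 against vehicle and 0.08 for CP2-treated against NTG mice. DESeq2 and limma-voom, too, put 0 of the 8 under an unadjusted p of 0.05. Since these 8 counts rest on the same reads, they amount to 1 measurement of the cluster.

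Gamma genes read higher than alpha genes. Pcdhgb6 was the highest member per kilobase, at 72.6 ± 4.71 CPM per kb, and Pcdhgb5, whose own exons are longer, the lowest, at 49.6 ± 3.29 CPM per kb (SD, 14 mice). The lowest gamma gene of a library read 311, 324, 340 and 342 CPM in NTG mice. It read 399, 305, 323, 324 and 335 CPM in APP/PS1 mice, mouse 16 being the highest of all 14, and 333, 325, 329, 317 and 322 CPM in CP2-treated mice. Of the 15 gamma members 0 passed an unadjusted p of 0.05 in edgeR, DESeq2 or limma-voom in the 3 comparisons. In edgeR 18.7%, 6.55% and 20.2% of all genes did. These 15 counts also rest mainly on the same reads, so they amount to 1 measurement of the cluster. The median log2 fold changes were 0.04, -0.05 and -0.00, and leaving out mouse 16 turned those of Pcdhgb6 and Pcdhgb5 to -0.02 each for APP/PS1 against NTG and to 0.02 and 0.01 for CP2 against vehicle.

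**Figure D4:**
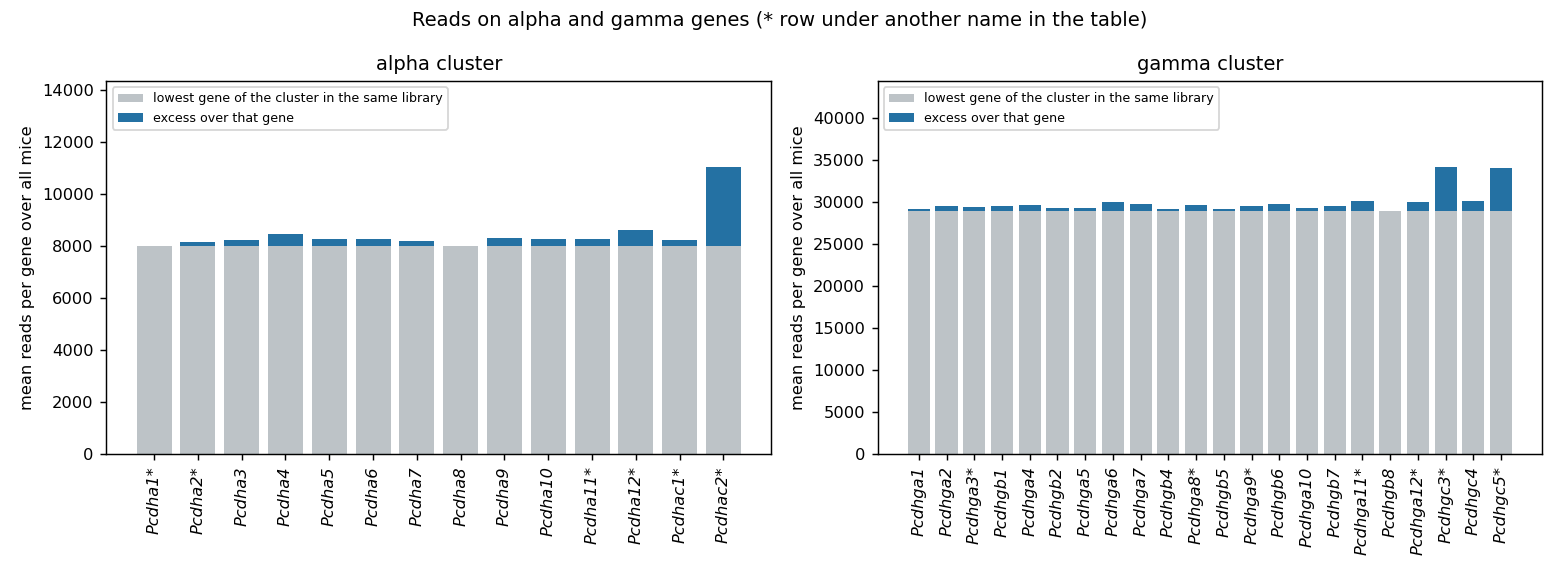
Mean reads per gene over 14 mice (y axis, from 0) for the 14 alpha and 22 gamma genes, split into the count of the lowest gene of the cluster in the same library (grey) and the excess above it (blue). The excess is largest for Pcdhac2 in the alpha cluster and for Pcdhgc3 and Pcdhgc5 in the gamma cluster.

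The C-type genes sit at the end of the alpha and gamma clusters and are known to be expressed more constantly than the others. Pcdhac2 had the largest mean excess of the alpha genes and Pcdhgc3 and Pcdhgc5 the largest of the gamma genes. Pcdhgc4 and, in capitals, Pcdhgc5 carry their own names in the table, and the other 3 C-type genes do not. Pcdhac2 exceeded the lowest alpha gene by 34.8 ± 2.36, 34.6 ± 3.18 and 35.4 ± 2.75 CPM (SD, n = 4, 5 and 5) in the NTG, APP/PS1 and CP2-treated group, an excess of 3051 of 11024 reads on average. Pcdhac1 exceeded it by 1.87 to 3.21 CPM. In the gamma cluster the excess of Pcdhgc3 was 66.1 ± 5.56, 57.2 ± 5.75 and 59.9 ± 7.48 CPM and that of Pcdhgc5 56.2 ± 10.03, 61.3 ± 15.8 and 59.7 ± 3.67 CPM in the same order of groups. Pcdhgc4, needed for the survival of neurons, had a smaller excess of 14.5 ± 3.12, 12.99 ± 2.69 and 15.2 ± 2.75 CPM.

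Pcdhgc3 showed the only C-type difference at an unadjusted p under 0.05 once the lowest count of the cluster was subtracted, in a table where 18.7% of genes were under it. Its excess read 66.3, 68.3, 58.4 and 71.4 CPM in NTG mice and 54.0, 54.3, 54.1, 67.3 and 56.2 CPM in APP/PS1 mice. Mouse 19 lay among the NTG mice and the other 4 APP/PS1 mice below them, with a log2 fold change of -0.20 ± 0.087 (SE, edgeR unadjusted p = 0.0427, adjusted p = 0.245). As counted, with the shared reads, the same gene stood at 0.00 ± 0.067. Of the bases of its own exons 1559 lie under the antisense gene BC037039, whose reads cannot be told apart without strand. The Pcdhgc5 excess read 82.2 CPM in mouse 16 and 42.2 to 66.9 CPM in the other mice, and Pcdhgc4 read 8.19 CPM in mouse 16 and 10.8 to 18.9 CPM in the others.

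**Figure D5:**
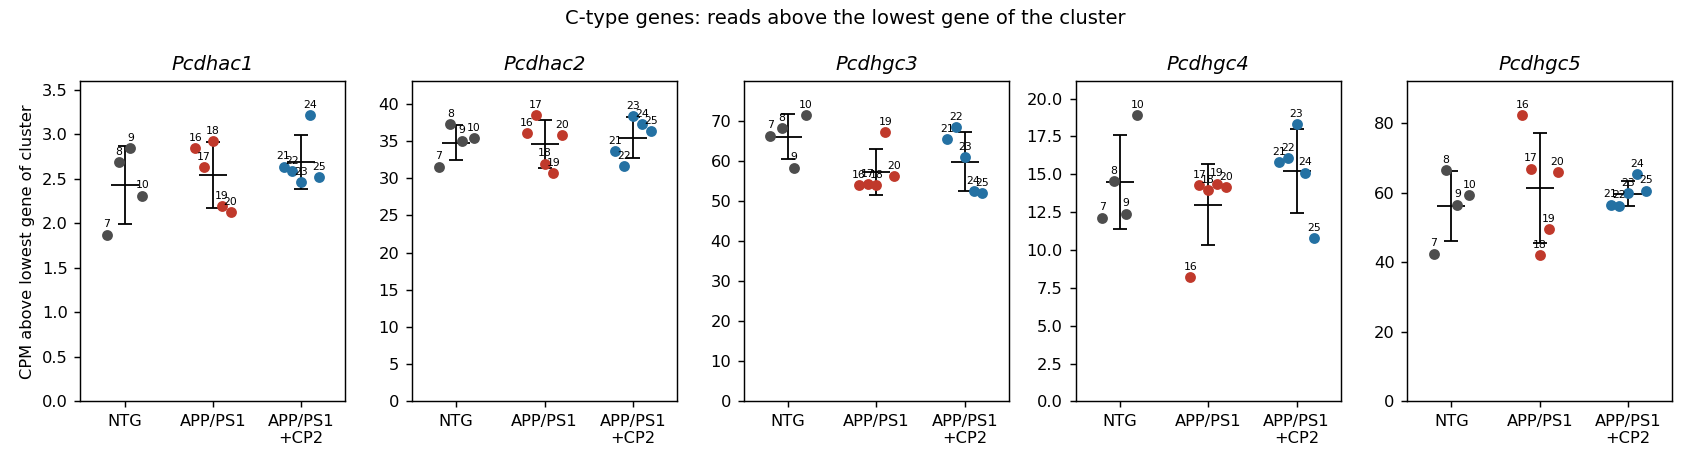
CPM above the lowest gene of the cluster in the same library (y axis, from 0) for the 5 C-type genes, by group, with 1 point per mouse and bars for the mean ± SD. The groups overlap for all 5 genes. Mouse 16 is highest for Pcdhgc5 and lowest for Pcdhgc4.

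Of the members tested after subtraction, 0 of 7 alpha and 0 of 13 gamma genes had an unadjusted p under 0.05 in the 3 comparisons (edgeR, where 18.7%, 6.55% and 20.1% of all genes did). The 13 gamma genes include the C-type gene Pcdhgc4. The subtraction left these members a mean of 208 (Pcdha7) to 1244.5 (Pcdhgc4) reads. Pcdha8, with a mean of 4.86 reads left, was not tested. A gene that is itself the lowest in a library has no reads left there. Outside the members, Pcdhga9 had an excess of 5.83 ± 1.14 CPM in NTG and 8.48 ± 2.09 CPM in APP/PS1 mice (SD, n = 4 and 5). Its log2 fold change was 0.55 ± 0.21 (SE, edgeR unadjusted p = 0.0248, adjusted p = 0.184). Pcdha2 had an excess of 2.15 ± 0.196, 1.71 ± 0.301 and 2.39 ± 0.309 CPM in NTG, APP/PS1 and CP2-treated mice (SD, n = 4, 5 and 5). Its log2 fold change was -0.32 ± 0.14 for APP/PS1 against NTG (edgeR unadjusted p = 0.0473, adjusted p = 0.259) and 0.48 ± 0.14 for CP2 against vehicle (edgeR unadjusted p = 0.00499, adjusted p = 0.743). As counted, with the shared reads, neither gene had an unadjusted p under 0.05 in these comparisons.

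The difference between Pcdhga1, the first gamma gene, and Pcdhgb8 cancels the shared reads. It was -248, 296, -46 and 321 reads in NTG mice 7 to 10, -150, 379, -165, 235 and 432 reads in APP/PS1 mice 16 to 20, and 299, 333, 244, 600 and -116 reads in CP2-treated mice 21 to 25. It was below 0 in mice 7, 9, 16, 18 and 25, the mice with the 5 lowest values of Pcdhb9, and above 0 in the remaining mice. The values of this pair were known when it was picked. Pcdhgb8 is annotated as a polymorphic pseudogene, and 406 of the own bases of Pcdhga1 overlap the gene Gm37118.

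The clusters depend on other proteins for their promoter choice, trafficking and signalling. Of 21 regulators of the clusters (among them the insulator protein Ctcf, cohesin subunits, Smchd1 and DNA methyltransferases) 20 were tested, and 0 passed an adjusted p of 0.05 in any comparison. In APP/PS1 against NTG mice the cohesin loader Mau2 stood at a log2 fold change of -0.07 ± 0.051 (SE, edgeR adjusted p = 0.512). For CP2 against vehicle the smallest unadjusted p were those of the maintenance methyltransferase Dnmt1 (0.10 ± 0.042, edgeR adjusted p = 0.744) and the cohesin subunit Smc1a (-0.08 ± 0.055, edgeR adjusted p = 0.782). For CP2-treated against NTG mice they were those of Dnmt1 (0.08 ± 0.046, edgeR adjusted p = 0.341) and Smchd1 (0.08 ± 0.049, edgeR adjusted p = 0.392).

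Of 20 intracellular partners, 1 was higher and 0 lower at an adjusted p under 0.05 in APP/PS1 against NTG mice, where 5.68% of all genes passed. That was Marcks, an actin-binding substrate of protein kinase C, at 138 ± 9.52 CPM in NTG and 160 ± 6.40 CPM in APP/PS1 mice (SD, n = 4 and 5, log2 fold change 0.22 ± 0.053, edgeR adjusted p = 0.0373). For CP2 against vehicle 0 passed, and the smallest unadjusted p were those of the kinase Src (0.14 ± 0.048, edgeR adjusted p = 0.744) and Marcks (-0.12 ± 0.048, edgeR adjusted p = 0.744). For CP2-treated against NTG mice, where 6.02% of all genes passed, 0 were higher and 1 lower, the WAVE complex subunit Abi1 (-0.18 ± 0.042, edgeR adjusted p = 0.0341).

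Protocadherins are cut by Adam10 and then by gamma-secretase. Of 9 protease genes 0 passed an adjusted p of 0.05 in the 3 comparisons, where 5.68%, 0.00609% and 6.02% of all genes did. The smallest unadjusted p were those of Adam17 (0.25 ± 0.067, edgeR adjusted p = 0.0605) and Aph1c (-0.20 ± 0.069, edgeR adjusted p = 0.144) for APP/PS1 against NTG, and of Psenen (-0.20 ± 0.069, edgeR adjusted p = 0.744) and Aph1b (-0.11 ± 0.10, edgeR adjusted p = 0.824) for CP2 against vehicle. For CP2-treated against NTG mice they were those of Aph1a (0.11 ± 0.040, edgeR adjusted p = 0.137) and Adam17 (0.18 ± 0.094, edgeR adjusted p = 0.305).

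Of 12 protocadherins outside the clusters 11 were tested. In APP/PS1 against NTG mice 0 passed an adjusted p of 0.05, the smallest unadjusted p being those of Pcdh9 (-0.22 ± 0.078, edgeR adjusted p = 0.158) and Pcdh20 (-0.61 ± 0.22, edgeR adjusted p = 0.168). In CP2-treated against NTG mice Pcdh20 was lower, at 45.5 ± 2.42 CPM against 57.6 ± 5.84 CPM (SD, n = 5 and 4, log2 fold change -0.33 ± 0.068, edgeR adjusted p = 0.0172). It was 1 of 11 genes tested, in a fit where 6.02% of all genes passed. For CP2 against vehicle 0 passed, Pcdh7 (0.12 ± 0.052, edgeR adjusted p = 0.744) and Pcdh1 (0.13 ± 0.062, edgeR adjusted p = 0.744) having the smallest unadjusted p. Of 27 other cadherin-superfamily genes 26 were tested and 0 passed in any comparison. The smallest unadjusted p were those of Clstn3 (-0.15 ± 0.045, edgeR adjusted p = 0.0888) and Cdh13 (0.32 ± 0.098, edgeR adjusted p = 0.0984) for APP/PS1 against NTG, Dscam (0.22 ± 0.062, edgeR adjusted p = 0.744) and Cdh9 (-0.20 ± 0.076, edgeR adjusted p = 0.744) for CP2 against vehicle, and Cdh13 (0.23 ± 0.070, edgeR adjusted p = 0.0917) and Cdh2 (0.11 ± 0.041, edgeR adjusted p = 0.147) for CP2-treated against NTG mice. Values in brackets in these paragraphs on other genes are log2 fold changes ± SE.

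At an unadjusted p under 0.05 in edgeR, APP/PS1 mice had 0 regulators higher and 0 lower than NTG mice, 2 partners higher and 3 lower, 2 proteases higher and 1 lower, 0 protocadherins outside the clusters higher and 2 lower, and 1 other cadherin higher and 4 lower, where 18.7% of all genes passed in either direction. CP2 against vehicle gave, in the same order of lists, 1 and 0, 1 and 1, 0 and 1, 1 and 0, and 1 and 1 genes, against 6.55% of all genes. CP2-treated against NTG mice gave 0 and 0, 0 and 2, 1 and 0, 2 and 1, and 4 and 1 genes, against 20.2% of all genes. Calls at an adjusted p under 0.05 again depended on the test for APP/PS1 against NTG mice. DESeq2 and limma-voom both called Pcdh20, Adam17, Clstn3, Marcks, the WAVE complex subunit Nckap1 and the GTPase Rhoa there, DESeq2 also Cdh13 and limma-voom also Abi1, in fits where 10.2% and 9.52% of all genes were called. For CP2 against vehicle both tools called 0 genes of the 5 lists, against 0.140% and 0.00609% of all genes. For CP2-treated against NTG mice both called Pcdh20 and Abi1, and DESeq2 also Cdh13, against 10.2% and 7.76% of all genes.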

How the data were processed

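RNA was sequenced from 14 mouse brains (TruSeq RNA v2). Per the study's methods, the authors used TopHat2 for alignment to mm10 and featureCounts for counting on Ensembl genes, with the option that counts a read on every gene it overlaps. The strand setting is not given in the sources used here. The authors deposited raw read counts and RPKM values, with exon lengths. The RPKM values were used only to check levels. All 14 count columns were matched to mice by title, and 0 columns were left unused.

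Fits held only the 2 groups compared and were made in R 4.3.3 with edgeR 4.0.16 (TMM factors, quasi-likelihood test, Benjamini-Hochberg adjustment over all genes tested). Tested genes had robust CPM over 1 in every mouse of at least 1 group. SEs are those implied by the test statistic. CPM values use TMM factors over all mice. DESeq2 1.42.0, limma 3.58.1, other normalizations, filters and leaving out each mouse were alternatives. Figures used matplotlib 3.10.9. The fits were tested on simulated data.

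Exon structure came from GENCODE vM21 (GRCm38), whose gene starts, ends and exon lengths equalled those in the table for all 58 cluster genes. To remove shared reads, the lowest count of the cluster in a library was subtracted from each alpha or gamma gene. Members, gene lists and tests were chosen with earlier results of these data known. Values per mouse are given for beta genes with an unadjusted p under 0.05 in any comparison, for the C-type genes, for the highest and lowest members per kilobase, and for other alpha and gamma genes with an unadjusted p under 0.05 after subtraction. From context lists the genes with an adjusted p under 0.05, or else the 2 with the smallest p, are named, except that 1 result is not reported here. Replicates are separate mice.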

Additional observations from a re-analysis of the deposited data

Results flagged for a closer look

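In groups of 4 or 5 mice, the gap between an extreme mouse and its nearest neighbour was set against the range of the group (Dixon's 95% critical value). Of 90 groups of values checked, 6 were past it, and chance alone passes about 1 in 20. Pcdhb6 read 12.8 CPM in APP/PS1 mouse 16, with 4.79 to 6.87 CPM in the other mice of its group. Pcdhb12 was low in CP2-treated mouse 25, at 7.53 CPM against 9.80 to 10.6 CPM. Pcdhb16 was high in NTG mouse 8, at 15.6 CPM against 12.3 to 12.4 CPM. Pcdhac1 exceeded the lowest alpha gene by 3.21 CPM in CP2-treated mouse 24 against 2.46 to 2.64 CPM. The excess of Pcdhgc3 was 67.3 CPM in APP/PS1 mouse 19 against 54.0 to 56.2 CPM. The excess of Pcdhgc4 was 8.19 CPM in APP/PS1 mouse 16 against 13.9 to 14.4 CPM. Mouse 16, which also had the high striatum markers, gave 2 of these.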

How the results depend on the processing

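For APP/PS1 against NTG mice, 4 beta genes had an unadjusted p under 0.05, and this became 2 with the share of ribosomal RNA-like counts as a covariate, 3 with upper-quartile factors, 5 with DESeq2 or all 3 groups in one fit and 6 with limma-voom, and ranged from 3 to 5 when single mice were left out. The count under an adjusted p of 0.05 rose from 0 to 3 with DESeq2, to 1 with all 3 groups in one fit and to 1 with limma-voom. For CP2 against vehicle the count of 2 at an unadjusted p became 1 with that covariate and ranged from 1 to 2 when single mice were left out. For CP2-treated against NTG mice the count of 1 ranged from 0 to 3. It was 3 without NTG mouse 10 and 0 without NTG mouse 7 or 9 or CP2-treated mouse 21, 23 or 25. The cause of these changes was not tested. The median log2 fold change of the beta genes kept its sign in the 3 comparisons under every alternative and with each mouse left out. After subtraction of the lowest count, the log2 fold changes of Pcdhgc3 and Pcdha2 in APP/PS1 against NTG mice turned to -0.20 and -0.32. Of 917 alternative values for named genes 92 changed sign, these 2 being the ones with an unadjusted p under 0.05 in either fit. The RPKM values of the authors put Pcdha5 at 14.95, Pcdha4 at 13.79, Pcdhgb6 at 59.8 and Pcdhgb5 at 40.9, below the CPM per kb given above. No paired analysis was possible because the groups share no replicate numbers. Pcdhb1, at 36 to 114 reads per library, did not pass the filter on low counts. The smallest difference detectable at low counts was not measured.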
